A study of Mus musculus with 5 samples.

Results

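Ms4a4b, Ly6a, Ly6c2, Plac8 and Ltb were followed through 4 libraries of sorted mouse CD4 T cells, as 5 of the 10291 genes with a line in any of the deposited count tables. They were picked by name, with their values in these libraries already known. Their counts chose them, so their levels and ratios are given as a description. Ly6a and Ly6c2 belong to the Ly6 family, Ms4a4b to the MS4A family of membrane proteins and Ltb to the TNF ligands, while Plac8 encodes a small cysteine-rich protein that is not a classical surface receptor.

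All cells came from mice with colitis, described by the submitters as autoimmune. One factor was the tissue, with cells sorted from the colon or from a lymph node labelled mLN. The other was treatment with light, against controls labelled only as controls. The light was a 980 nm laser of 1.22 W at a duty cycle of 80%, aimed at an area of 4 square centimetres, in sessions of 5 minutes that came every 2 days. Each tissue thus gave a control group and a light group, and each of the 4 groups holds 1 library. There was therefore no spread between replicates, and no p-value was computed. Strain, age, number of animals and pooling are not given in the labels used here.

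MS4A4B is a membrane-spanning protein of T cells that has been linked to the control of their proliferation. LY6A (Sca-1) and LY6C are small proteins held on the cell surface by a lipid anchor. Both are used to tell subsets of T cells apart, LY6C also marks inflammatory monocytes, and Ly6a is induced by interferon. Lymphotoxin beta holds lymphotoxin alpha at the cell surface, and the complex signals to stromal cells through the lymphotoxin beta receptor and noncanonical NF-kB, which builds and maintains lymph nodes and gut lymphoid tissue.

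The tables hold 435847 summed counts for the colon control, 1959296 for colon light, 971227 for lymph node control and 1068864 for lymph node light, in 379 to 384 barcode columns. The columns of a table count many molecules repeatedly, in overlapping sets, so they are neither cells nor replicates. Dividing summed counts by the average number of columns that hold a molecule, weighted by size, gave 6180, 39297, 11499 and 21214 molecule-equivalents in the same order. Intervals of levels and ratios are exact 95% intervals (Clopper-Pearson) built from these equivalents, or from recovered molecules where each was counted once. Intervals of differences between ratios are normal ones on the log scale. All of them describe the error of counting and nothing else. The floor, the level that 3 molecule-equivalents stand for, was 485 CPM (counts scaled to a total of 1000000) in the colon control, 76.3 in colon light, 261 in lymph node control and 141 in lymph node light. The colon control library stood apart from the rest. It shared 4 or 5 barcodes with each other table where the others shared 373 or 374 among themselves, it listed 2361 genes with a count against 3635 to 6734, and its lines for Cd3d, Cd3e, Cd3g and Cd4 repeated those of the lymph node control table by position and were left out. No line of the 5 genes was a repeat, with correlations by position between -0.0617 and 0.0902 over 18 pairs of lines. Results with the colon control are therefore kept apart from those of the other 3 libraries.

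In the lymph node, the 5 genes together made up 0.984% of counts in the control library and 0.741% in the light library. In the colon they made up 0.234% with light and 0.0461% in the control, where Plac8 was the only one listed above 0. In the 3 libraries other than the colon control the genes fell into different patterns. In CPM, Ms4a4b, Ly6a and Ly6c2 were high in both lymph node libraries and lower in the colon, whereas Plac8 and Ltb were high in the lymph node control and lower in both light libraries. Colon light and lymph node control differ in both tissue and treatment, and their order was not examined on any other scale. The plot of levels by library shows these patterns.

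**Figure D1:**
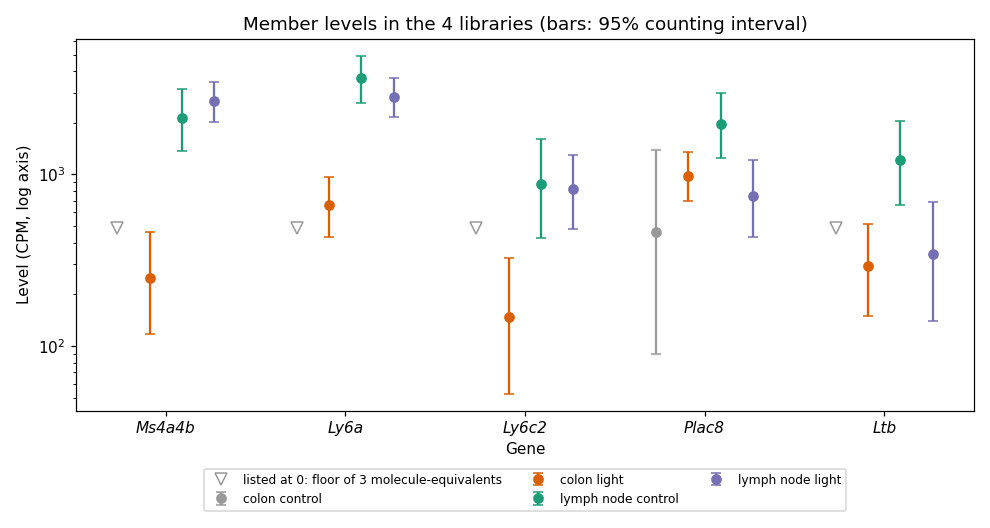
Level of each gene in each library in CPM on a log axis, with bars for the 95% counting interval; open triangles mark the floor of the colon control for genes listed at 0 there. Ms4a4b is at 2124 and 2672 CPM in the lymph node libraries and at 248 CPM in colon light, whereas Plac8 and Ltb have their highest level in the lymph node control.

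Ms4a4b lies at chr19:11443553-11467055 on the plus strand of mm10. Its summed counts were 2063 in lymph node control, 2856 in lymph node light, 485 in colon light and 0 in the colon control. Separating the column patterns recovered 26 molecules in lymph node control, about 61 in lymph node light and 16 in colon light. No column pattern held more than about 3.25 molecules of it in any of these libraries, so no single pattern made up the count. The level was 2124 CPM (1367 to 3148) in lymph node control and 2672 CPM (2023 to 3463) in lymph node light. It was 248 CPM (117 to 459) in colon light, so the lymph node intervals overlapped each other and both lay above that of colon light. Both lymph node libraries were thus high, and the treated colon was low.

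Ly6a lies at chr15:74994877-74998031 on the minus strand, in the Ly6 cluster. Its level was 3643 CPM (2626 to 4923) in lymph node control, 2825 CPM (2156 to 3635) in lymph node light and 665 CPM (435 to 973) in colon light, and it was listed at 0 in the colon control. These rest on 44, about 71 and about 31 recovered molecules. The intervals of the lymph node libraries overlapped, and colon light lay below both.

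Ly6c2, at chr15:75108158-75111970 on the minus strand, starts its annotated span 110127 bases beyond the end of Ly6a. Its level was 884 CPM (427 to 1618) in lymph node control, 821 CPM (482 to 1306) in lymph node light and 147 CPM (52.7 to 324) in colon light, from 11, 23 and 7 recovered molecules. It was listed at 0 in the colon control. The order of libraries was the same as for Ly6a, and again the lymph node intervals overlapped while that of colon light lay below them. Ly6c2 has a near copy, Ly6c1, 59328 bases away, and the last 300 bases of their transcripts are 93.8% identical. Ly6c1 was listed at 0 in all 4 libraries, and how the submitters assigned reads shared by both genes is not given, so the counts of Ly6c2 may include some of Ly6c1. The same stretch of Ly6a and Ly6c2 is 82.1% identical.

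The 250 bases upstream of the RefSeq start were searched on both strands for 5 motifs, with the RefSeq promoter table (GRCm38.p6) holding 4 of the 5 genes. The motifs were NF-kB (GGGA, any base, TTTCC), ISRE (GAAA, any 2 bases, GAAA), GAS (TTCNNNGAA), AP-1 (TGANTCA) and RUNX (TGTGGT). Ms4a4b and Ly6c2 are shown first because both were high in the lymph node and low in the treated colon. Capitals mark a motif match, and bases inside the GENCODE gene are left out. The Ms4a4b stretch is chr19:11443308-11443552 on the plus strand and the Ly6c2 stretch chr15:75111972-75112221 on the minus strand.
Ms4a4b: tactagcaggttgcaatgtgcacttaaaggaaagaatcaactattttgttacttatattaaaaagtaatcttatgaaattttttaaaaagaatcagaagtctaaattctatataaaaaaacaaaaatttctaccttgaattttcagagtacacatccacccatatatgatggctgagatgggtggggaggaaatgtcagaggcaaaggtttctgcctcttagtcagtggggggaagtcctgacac
Ly6c2: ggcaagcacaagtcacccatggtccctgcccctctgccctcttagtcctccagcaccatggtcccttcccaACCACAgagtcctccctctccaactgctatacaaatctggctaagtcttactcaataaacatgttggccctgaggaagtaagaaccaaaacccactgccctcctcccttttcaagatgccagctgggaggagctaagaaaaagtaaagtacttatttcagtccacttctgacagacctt
The Ms4a4b stretch holds none of the 5 motifs and has a GC content of 34.4%, against a median of 52.0% over 27025 promoters. Ly6c2 holds a RUNX match on the minus strand, 179 to 174 bases upstream of the start, a motif found in 14.2% of those promoters. Since Ms4a4b held no match, the pair could share none of these motifs, and nothing is read from this. Ly6a, of the same expression pattern, is the gene without a listed promoter. The RUNX motif also matched in Plac8, whose pattern differed.

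Plac8 lies at chr5:100553725-100572245 on the minus strand. Its summed counts were 1920 in lymph node control, 804 in lymph node light, 1932 in colon light and 200 in the colon control. The level was 1977 CPM (1250 to 2972) in lymph node control, 752 CPM (430 to 1222) in lymph node light and 986 CPM (700 to 1349) in colon light. These rest on 21, 23 and about 50 recovered molecules. In the colon control it was 461 CPM (89.8 to 1381) from 3 molecules, which is under the floor. The lymph node control was the highest library in CPM, above colon light, the next, by a log2 ratio of 0.99 (0.19 to 1.79). That ratio crosses tissue with treatment and was not computed on other scales. The intervals of the light libraries overlapped.

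Ltb lies at chr17:35194439-35196320 on the plus strand, 3061 bases from Tnf and 6845 bases from Lta, the gene of its partner lymphotoxin alpha. Its level was 1215 CPM (664 to 2039) in lymph node control, 341 CPM (140 to 695) in lymph node light and 293 CPM (149 to 518) in colon light, and it was listed at 0 in the colon control. About 13.4, 10.0 and 11 molecules were recovered. As with Plac8, the lymph node control was the high library in CPM and the light libraries lay close together, here on few molecules.

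The promoters of Plac8 and Ltb are shown because both genes were lower in the light-treated lymph node. The Plac8 stretch is chr5:100572246-100572455 on the minus strand and the Ltb stretch chr17:35194257-35194438 on the plus strand, printed as above.
Plac8: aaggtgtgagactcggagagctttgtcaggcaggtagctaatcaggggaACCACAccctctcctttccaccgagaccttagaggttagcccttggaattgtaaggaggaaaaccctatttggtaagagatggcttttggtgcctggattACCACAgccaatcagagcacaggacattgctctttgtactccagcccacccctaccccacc
Ltb: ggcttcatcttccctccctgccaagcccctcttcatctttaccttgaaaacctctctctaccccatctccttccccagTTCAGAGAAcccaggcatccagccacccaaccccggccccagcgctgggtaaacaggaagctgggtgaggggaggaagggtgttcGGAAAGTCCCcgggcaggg
Ltb holds an NF-kB match on the minus strand, 87 to 78 bases upstream of the RefSeq start, which 0.337% of the 27025 promoters hold. It also holds a GAS match 172 to 164 bases upstream, a motif found in 7.18% of promoters, and has a GC content of 63.2%. Plac8 holds 2 RUNX matches on the minus strand, 201 to 196 and 101 to 96 bases upstream, and none of the other motifs. ISRE and AP-1, found in 3.04% and 6.87% of promoters, matched in none of the 4 genes. These are matches of letters and do not show binding.

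The comparison of lymph node light with lymph node control sets treated against untreated T cells of the lymph node. Ltb had a log2 ratio of CPM of -1.74 (-3.36 to -0.44) and Plac8 of -1.36 (-2.42 to -0.41), and both intervals lay below 0. Ms4a4b had 0.33 (-0.38 to 1.08), Ly6a -0.36 (-0.96 to 0.24) and Ly6c2 -0.10 (-1.30 to 1.17), and these 3 intervals included 0. All 5 genes passed the minimum of 20 molecule-equivalents over both libraries, as did 188 genes in all, whose median log2 ratio was -0.16. At least 2-fold lower were 2 of the 5, against 5.85% of all genes tested, and 0 of the 5 were at least 2-fold higher, against 5.32%. Intervals wholly below 0 were found for 2 of the 5 and for 9.04% of genes tested, intervals wholly above 0 for 5.32%. The genes were chosen with this contrast known, so nothing is read from their count. Of the 188 genes, 0.532% had a lower ratio than Ltb and 2.13% a lower ratio than Plac8, while 76.6% were below Ms4a4b.

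Both calls depended on the scale. Scaling by the median of ratios moved every ratio of this contrast up by 0.48 and turned the split of all genes from 10 higher and 11 lower to 32 higher and 2 lower. On that scale Plac8 was at -0.89 (-1.93 to 0.07) and Ltb at -1.28 (-2.88 to 0.04), so both intervals included 0, and Ms4a4b was at 0.80 (0.10 to 1.56), above 0. Counting each recovered molecule once put Plac8 at -0.96 (-1.90 to -0.06), less than 2-fold lower, and Ltb at -1.47 (-2.88 to -0.24). Differences between 2 genes' ratios do not move with the scale, and are given as a description, since these genes were chosen with the ratios known. The ratio of Ms4a4b exceeded that of Ltb by 2.16 (0.70 to 3.63) and that of Plac8 by 1.73 (0.58 to 2.87), the ratio of Ly6a exceeded that of Ltb by 1.46 (0.05 to 2.88), and that of Ly6c2 exceeded that of Ltb by 1.72 (0.01 to 3.43). These were the 4 of 10 pairs whose interval, a normal one on the log scale, did not include 0. With each recovered molecule counted once, 2 of the 10 were left, Ms4a4b against Ltb at 1.64 (0.29 to 3.00) and against Plac8 at 1.09 (0.01 to 2.17). Ly6a against Ltb was then at 1.11 (-0.19 to 2.41) and Ly6c2 against Ltb at 1.48 (-0.09 to 3.05). For Plac8 against Ltb the difference was 0.44 (-1.15 to 2.03).

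**Figure D2:**
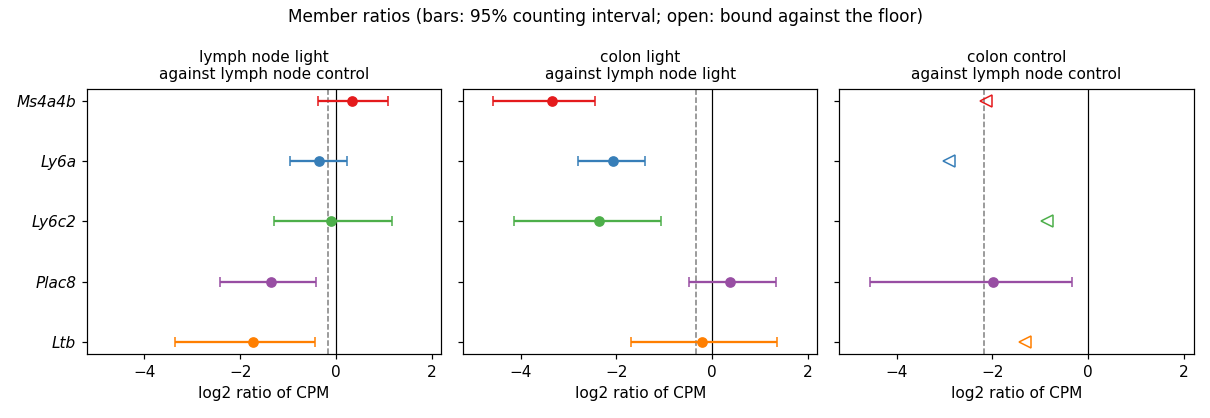
Log2 ratio of CPM of each gene in 3 comparisons, with bars for the 95% counting interval, open triangles for bounds against the floor and a dashed line at the median of all genes tested. Plac8 and Ltb lie below 0 in the lymph node under light, and Ms4a4b, Ly6a and Ly6c2 lie below 0 in colon light against lymph node light.

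The comparison of colon light with lymph node light asks how the tissues differ among treated animals, in libraries that share 374 barcodes. Ms4a4b was lower in the colon by -3.35 on the log2 scale (-4.58 to -2.44), the lowest ratio of the 304 genes tested. Ly6c2 was at -2.36 (-4.14 to -1.06) and Ly6a at -2.06 (-2.81 to -1.40). Plac8 was at 0.38 (-0.48 to 1.33) and Ltb at -0.21 (-1.69 to 1.35), and neither interval left out 0. Ltb did not reach the minimum of 20 molecule-equivalents, so 4 of the 5 were among the genes tested. At least 2-fold lower were 3 of the 5, against 19.4% of genes tested, and 0 were at least 2-fold higher, against 13.5%. The median over all 304 genes was -0.34, and 24.7% had an interval wholly below 0 and 11.2% wholly above it. The members' place in this contrast was again known when they were chosen.

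**Figure D3:**
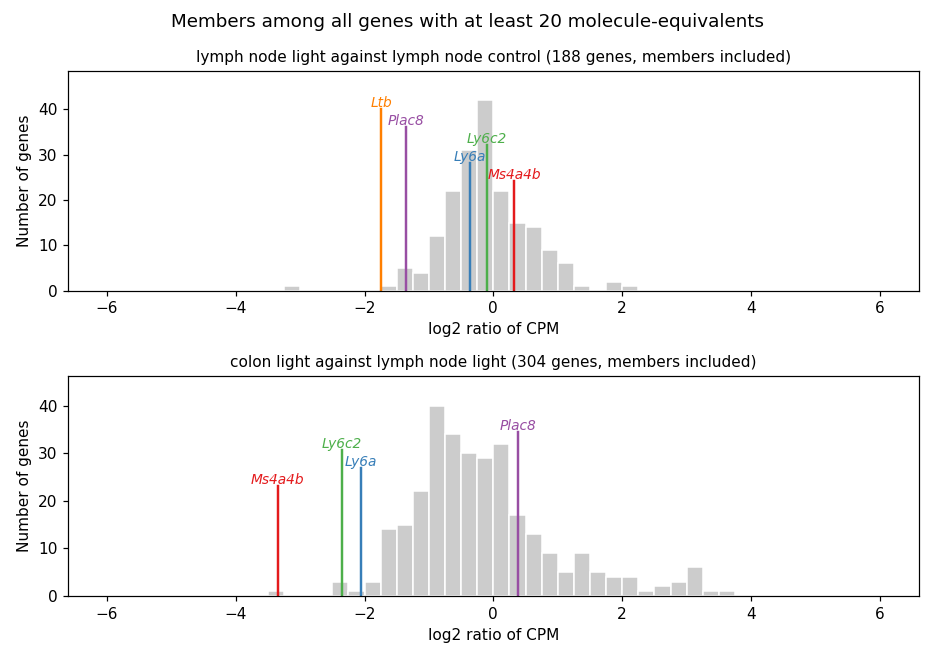
Histograms of the log2 ratio of CPM over the genes with at least 20 molecule-equivalents in both libraries together, for lymph node light against control (188 genes) and colon light against lymph node light (304 genes); coloured lines mark the 5 genes where they passed, their height only separating the names. Ltb and Plac8 lie in the lower tail of the upper panel, and Ms4a4b, Ly6c2 and Ly6a in that of the lower panel.

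Of the 10 differences between pairs in this contrast, again a description of the pattern the genes were chosen for, 7 had an interval without 0. The ratio of Ms4a4b was below that of Plac8 by -3.82 (-5.12 to -2.53) and below that of Ltb by -3.21 (-4.87 to -1.55). Ly6a was below Plac8 by -2.48 (-3.55 to -1.41) and below Ltb by -1.87 (-3.36 to -0.37). Ly6c2 was below Plac8 by -2.87 (-4.47 to -1.27) and below Ltb by -2.26 (-4.17 to -0.35). Ms4a4b was also below Ly6a, by -1.34 (-2.53 to -0.16). With each recovered molecule counted once 5 of the 10 were left; the difference of Ly6a and Ltb was then -1.35 (-2.73 to 0.03) and that of Ms4a4b and Ly6a -0.71 (-1.71 to 0.29).

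T-cell identity genes differed between the same libraries. Their summed level was 3484 CPM in colon light and 9314 CPM in lymph node light, a log2 ratio of -1.41 (-1.74 to -1.10), and 5 of the 5 that passed the minimum were at least 2-fold lower in the colon. Monocyte and macrophage genes went the other way, at 2835 CPM in colon light and 966 CPM in lymph node light (1.54, 0.87 to 2.31), with counts for 15 and 9 of 22 genes. Lyz2, the lysozyme of myeloid cells, was at 1.97 (0.82 to 3.52) and Fcer1g, a signalling chain of Fc receptors, at 1.77 (0.03 to 4.54). Cd14, Adgre1, Itgam, Fcgr3, Ms4a7 and Chil3 of that list were at 0 in every library. In such bulk libraries fewer cells of a type and less RNA per cell cannot be told apart. The part of these markers in the ratios of the 5 genes was read only from a change of scale, chosen after the data were seen. Scaled to the T-cell identity genes, which adds 1.42 to every ratio, Ms4a4b was still lower in the colon at -1.97 (-3.17 to -1.02). Ly6a was then at -0.66 (-1.39 to 0.02) and Ly6c2 at -1.01 (-2.72 to 0.36), intervals that include 0. Plac8 was at 1.77 (0.93 to 2.75), higher in the colon, and Ltb at 1.13 (-0.27 to 2.77). All ratios moved up together on this scale, and 0 came to lie between Ly6a and Ltb instead of between Ltb and Plac8. Median-of-ratios scaling, which adds 0.54 and turns 41 higher and 59 lower genes into 64 and 22, also put the interval of Plac8 above 0, at 0.91 (0.06 to 1.87).

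**Figure D4:**
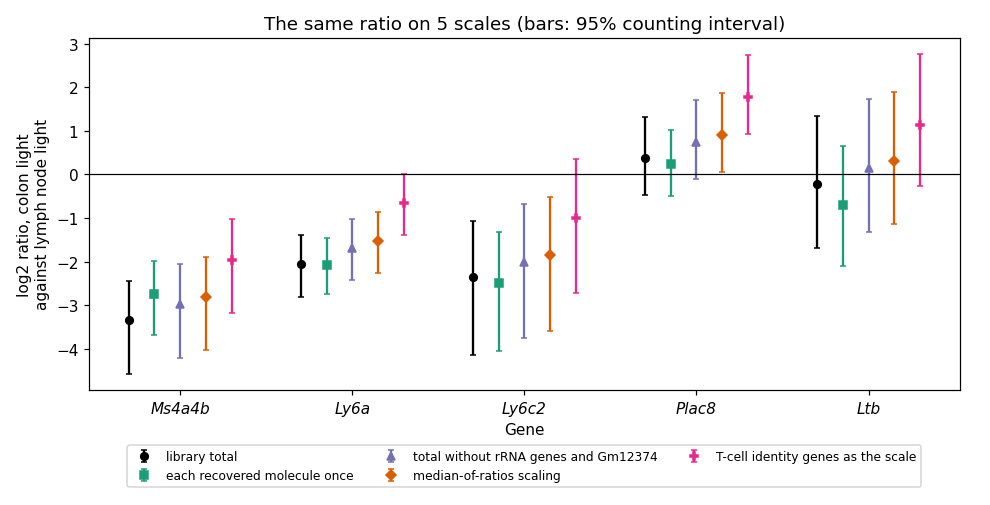
Log2 ratio of colon light against lymph node light for the 5 genes on 5 scales, with bars for the 95% counting interval. Ms4a4b lies below 0 on all 5 scales, while Ly6a and Ly6c2 reach 0 and Plac8 lies above it when the T-cell identity genes set the scale.

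Within the lymph node the same marker lists moved less. T-cell identity genes summed to 11067 CPM in the control and 9314 CPM with light (-0.25, -0.58 to 0.08), with 0 of the 5 that passed at least 2-fold changed. Monocyte and macrophage genes summed to 839 and 966 CPM (0.20, -0.97 to 1.48). On the T-cell scale, which adds 0.25, Plac8 was at -1.12 (-2.17 to -0.16) and Ltb at -1.51 (-3.11 to -0.19), both still below 0. Of the 19 B and plasma cell genes, which matter because B cells also express Ltb, 1 had a count in each lymph node library. It was Igkc at 324 CPM in the control and Ighm at 34.6 CPM with light, a log2 ratio of -2.44 (-10.50 to 0.46) for the list. The estimate lies below 0 as that of Ltb does, but it rests on 3.73 molecule-equivalents of Igkc and 0.734 of Ighm, the latter under the floor. Its interval includes 0, so no direction is read from it. The part of B cells in the ratio of Ltb was not tested. Cd79a and Ms4a1 were at 0 in all 4 libraries. The Cd4 gene itself was at 478 CPM in lymph node control, 334 CPM in lymph node light and 186 CPM in colon light. Cd8a was at 0 in all 4 libraries. Neutrophil genes were at 0 in the 3 libraries other than the colon control, and colon epithelial genes in all 4.

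In the colon control, levels below 485 CPM could not be seen reliably, and the comparison of colon light with colon control gave little on these genes. Ly6a, listed at 0 in the control, was at least 1.37-fold higher with light against the floor, and the end of its interval nearest to 0 was a log2 ratio of 0.05. With colon light thinned to the depth of the control that end moved to -0.60. Plac8 was at 1.06 (-0.59 to 3.52), and with median-of-ratios scaling, which adds 1.34 to each ratio of this contrast, at 2.32 (0.74 to 4.85). With colon light thinned to the depth of the control, Plac8 was at 0.06 (-2.85 to 3.05). Ms4a4b, Ly6c2 and Ltb have no ratio, since their colon light levels of 248, 147 and 293 CPM were themselves under the floor of the control. Light went with a level at least 2-fold higher for 75.5% of the 208 genes tested and at least 2-fold lower for 14.4%, and the median log2 ratio was 2.18. Intervals lay wholly above 0 for 39.9% and wholly below 0 for 13.9% of them, and for 1 of the 5 genes, Ly6a, above 0. The treatment and whatever else sets the colon control library apart cannot be told apart here. T-cell identity genes were at 1086 CPM in it, without the 4 left-out lines of that list, and colon light against colon control over the genes both hold was at 1.35 (0.25 to 2.75). In the colon control monocyte and macrophage genes were at 2412 CPM.

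Against the lymph node control, 4 of the 5 genes had no count in the colon control, so floors set bounds. Ly6a was at least 7.52-fold lower, Ms4a4b at least 4.39-fold, Ltb at least 2.51-fold and Ly6c2 at least 1.83-fold lower against the floor. The 95% upper limit of a count of 0 in that library is 597 CPM, above the floor, and on the log2 scale the intervals came as near to 0 as -2.55, -1.72, -0.83 and -0.30 in the same order. Plac8 had a log2 ratio of -1.98 (-4.56 to -0.34), under the floor in the colon, and of -1.74 (-4.46 to 0.05) with the lymph node library thinned to the depth of the colon control. Of the 89 genes tested, 67.4% were at least 2-fold lower and 29.2% at least 2-fold higher in the colon control, with a median of -2.18, so low values were the rule in this library. Intervals lay wholly below 0 for 67.4% of genes tested and wholly above 0 for 28.1%. Ms4a4b, Ly6a and Plac8 passed the minimum here through their counts in the lymph node, as Ly6a and Plac8 did in the previous contrast through colon light, so their direction was largely set by passing.

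Most relatives of the 5 genes had no count. Of 43 genes of the Ly6 and uPAR family, 7 had a count in any library, and only Ly6e besides the members passed 20 molecule-equivalents over all libraries. Ly6e, a broadly expressed interferon-inducible member, was at 1186 CPM in lymph node control, 951 CPM in lymph node light, 286 CPM in colon light and 0 in the colon control. Its ratio was -0.31 (-1.38 to 0.79) for light in the lymph node and -1.68 (-2.93 to -0.61) for colon light against lymph node light. Ly6e thus had its levels in the same order as Ly6a and Ly6c2. That order was not particular to the family, since Trbc1, Trbc2, Cd52, Thy1 and Ms4a6b had it too. Ly6i, Lynx1, Plaur and Ly6g6c were at 1 to 3 recovered molecules where they had a count at all.

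Of 21 genes of the MS4A family 8 had a count. Ms4a6b, a relative of Ms4a4b in the same cluster, was at 1617 CPM in lymph node control, 1077 CPM in lymph node light, 423 CPM in colon light and 0 in the colon control. Its ratio of colon light against lymph node light was -1.31 (-2.35 to -0.37), and for light in the lymph node it was -0.57 (-1.53 to 0.38). The last 300 bases of the Ms4a4b transcript are 51.7% identical with those of Ms4a6b and 52.5% with those of Ms4a4c, which had 2 recovered molecules in each light library. Of the 3 genes of the PLAC8 family, only Plac8 had a count.

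The genes of the partner and the receptor of lymphotoxin beta, and the neighbouring gene Tnf, were under the floor. Lta had a level of 53.3 CPM in lymph node light and 0 elsewhere, Tnf of 184 CPM in lymph node control and 14.3 CPM in colon light, and the receptor gene Ltbr of 30.6 CPM in colon light, all under their floors. The 12 TNF ligands other than Ltb summed to a log2 ratio of -0.09 (-2.19 to 2.26) for light in the lymph node, where Ltb was at -1.74, and to 0.31 (-1.11 to 1.95) for colon light against lymph node light. None of the 12 passed the minimum in either contrast. The list of lymphotoxin receptors and noncanonical NF-kB signalling, with 15 of 20 genes counted somewhere, summed to 0.29 (-1.04 to 1.81) for light in the lymph node. For colon light against lymph node light it summed to 1.19 (0.42 to 2.08), with 1 gene past the minimum, the NF-kB inhibitor Nfkbia at 1.76 (0.24 to 3.99). Nfkbia held 23.8 of the list's 70.0 molecule-equivalents in colon light. Nfkbia, Nfkb1, Rela and Ikbkb of the list are not particular to noncanonical signalling, so the sum is no measure of the noncanonical pathway alone. The stromal chemokines Ccl19, Ccl21a and Cxcl13, which the pathway induces in lymph node stroma, were at 0 in all libraries.

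The 45 other lymphocyte surface genes summed to 5907 CPM in colon light and 9806 CPM in lymph node light, a log2 ratio of -0.73 (-1.01 to -0.45). Of the 5 that passed, 1 was at least 2-fold lower, Cd52 at -1.08 (-1.96 to -0.25), a small lipid-anchored glycoprotein of lymphocytes. Thy1 was at -0.96 (-2.02 to 0.04), Ptprc (CD45) at -0.65 (-1.33 to 0.02) and Gimap4, a GTPase of T cells, at -0.92 (-2.19 to 0.28). Gimap6, of the same GTPase family, was at 0.11 (-1.30 to 1.68). For light in the lymph node the list summed to 0.07 (-0.27 to 0.42), and of 3 that passed, Ptprc was higher at 1.14 (0.08 to 2.42) while Cd52 was at -0.13 and Thy1 at -0.38.

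Interferon-inducible genes, the class to which Ly6a and Ly6e belong, were also lower in the treated colon as a share of all counts. Their 52 genes summed to a log2 ratio of -1.20 (-1.53 to -0.88) for colon light against lymph node light, and 2 of the 3 that passed were at least 2-fold lower, Ifi27l2a at -1.95 (-2.78 to -1.23) and Ifi203 at -2.29 with an interval also wholly below 0. Without Ifi27l2a the list was still lower there, with an interval of -1.37 to -0.63. T-cell identity genes were lower in the same contrast too, at -1.41 (-1.74 to -1.10). The interferon list was not rescaled to them, nor were Ly6e, Ms4a6b and the other surface genes. The ratios of the interferon list, of the other surface genes at -0.73 (-1.01 to -0.45) and of Ms4a6b at -1.31 (-2.35 to -0.37) were less low than that of the T-cell genes. Ly6e, at -1.68 (-2.93 to -0.61), was lower, with an interval that overlapped that of the T-cell genes. These differences from the T-cell genes were not tested. For light in the lymph node the list summed to -0.41 (-0.75 to -0.08), and of 2 that passed, Ifi27l2a was lower at -1.21 (-1.80 to -0.65), with levels of 5287 CPM in the control and 2269 CPM with light. The lower sum of the list rested on this gene: the other 51 summed to 6034 CPM in the control and 6233 CPM with light (0.05, -0.38 to 0.49). The other that passed, Ifi203, was at 0.63 (-0.76 to 2.30). Ly6a, at -0.36 (-0.96 to 0.24), had an interval that overlapped those of the list and of Ifi27l2a. Ifitm3, also of this class but under the minimum, was at 0.91 (-0.92 to 3.44) in the same contrast.

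The genes most like each member were found by the distance of centred log2 CPM over the 3 libraries other than the colon control, among 382 genes with at least 20 molecule-equivalents. Nearest to Ms4a4b were Sp100 at a distance of 0.632, Trac at 0.751 and Cmtm7 at 1.01. Nearest to Ly6a were Cmtm7 at 0.177, Gmfg at 0.246 and Sp100 at 0.288, and nearest to Ly6c2 were Sp100 at 0.0784, Trac at 0.212 and Cmtm7 at 0.378. Trac is the constant region of the T-cell receptor alpha chain and Sp100 a nuclear body protein. Plac8 lay nearest to Cyba at 0.154, a subunit of the phagocyte oxidase, Atp5j2 at 0.179 and Pabpc1 at 0.213. Ltb lay nearest to Aprt at 0.237, Fam104a at 0.309 and Lsp1 at 0.320, a leukocyte actin-binding protein. The neighbours of Ms4a4b, Ly6a and Ly6c2 overlapped, and those of Plac8 and Ltb were other genes. With only 3 libraries behind each distance, and libraries of unequal depth, this likeness is a description of these libraries. With the colon control added, Sp100, Trac and Cmtm7 stayed among the 10 nearest genes of Ms4a4b and Ly6c2, Pabpc1 of Plac8, and Aprt and Lsp1 of Ltb, while none of the 3 neighbours of Ly6a did.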

How the data were processed

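Per the labels' protocols, poly(A) RNA was captured with an oligo-dT probe that carries a sample barcode of 7 bases and a molecular identifier of 8 bases. The submitters' processing notes name FastQC, STAR 2.5.1a and mm10. The counting tool is not stated in the sources used here. The authors deposited whole-number counts, a gene per line and a barcode per column; values were not normalized. The lymph node tables end in an unnamed line that repeats the column totals (49.999% of the counts), which was left out, as were repeated lines (Foxp3 in all tables; in the colon control also Cd4 and the genes Cd3d, Cd3e and Cd3g). A sheet of barcodes deposited as a sample of its own belongs to no group and was not used for comparisons. Of 10291 genes, 10136 were matched to GENCODE M21.

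Counts were summed over columns and scaled to CPM. Lines were written as non-negative sums of column patterns shared by at least 2 genes, exactly for 92.6% of genes in the colon control, 93.3% in colon light, 92.6% in lymph node control and 96.7% in lymph node light; these genes hold 42.5%, 39.2%, 55.9% and 62.9% of counts. A molecule was held by 70.2, 49.9, 84.5 and 50.4 columns on average, weighted by size. Summed counts divided by this number are molecule-equivalents; molecules given as "about" come from lines solved approximately. Log2 ratios used a prior count of 0.5 scaled to depth. A gene at 0 in 1 library got a bound against the floor of 3 molecule-equivalents in that library. No count model was fitted, because there is 1 library per group. Scripts were tested on simulated data. Tools were Python 3.11.15, numpy 2.4.6, scipy 1.17.1 and pandas 2.3.3.

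The 5 genes and the 18 gene lists were chosen with earlier results of these data known. Named were the 5 genes, up to 6 genes per related list that reach 20 molecule-equivalents in the 4 libraries together, the 3 genes most like each member and leading markers; Lta, Tnf, Ltbr, Ly6c1, Ms4a4c and genes named as listed at 0 or at a few molecules were chosen after their values were seen, as were the differences between pairs of members and the interferon-inducible list without Ifi27l2a. Dendritic, NK and innate lymphoid, endothelial, stromal and erythroid lists had counts for 2 to 8 of their genes in any library, the CD8 list for 1.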

Additional observations from a re-analysis of the deposited data

Results flagged for a closer look

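Plac8 had a log2 ratio for light of 1.06 (-0.59 to 3.52) in the colon and of -1.36 (-2.42 to -0.41) in the lymph node, a difference of 2.42 (0.45 to 4.39) on a normal interval that covers counting error only. It was picked out because the ratio differed between the tissues. With 1 library per group the difference was not tested against replicates. The median light ratio over all genes tested also differed, at 2.18 in the colon and -0.16 in the lymph node. Below Plac8 lay 25.0% of genes tested in the colon and 2.13% in the lymph node. The difference is therefore not shown to be particular to Plac8. With colon light thinned to the depth of the colon control, the ratio of Plac8 in the colon was 0.06 (-2.85 to 3.05). The colon control behind it holds 3 recovered molecules of Plac8, under the floor, and shares 4 or 5 barcodes with each other library. The other 4 genes, with no count in that library, give no such difference.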

How the results depend on the processing

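No paired analysis was possible because each group has 1 library, and for the same reason none could be left out. Of 20 ratios of the 5 genes, 3 had no value. For the others, 118 of 122 values under 8 alternative settings stayed inside the counting interval of the main setting and 0 reversed a called direction. The 4 that moved further were those of colon light against lymph node light scaled to T-cell identity genes, a setting added after seeing the data: Ms4a4b -1.97, Ly6a -0.66, Ly6c2 -1.01 and Plac8 1.77. Shared barcodes alone and T-cell identity genes as the scale were not run with the colon control, which shares too few barcodes and lacks most of those genes. Bounds against the floor have an interval open on the far side, so a move that way could not count. Values that stayed inside could still lose a call. Median-of-ratios scaling brought the intervals of Plac8 and Ltb in lymph node light against control to include 0. The T-cell scale did so for Ly6a and Ly6c2 in colon light against lymph node light. Thinning the deeper library did so for Ly6a in colon light against colon control. It also did so for Plac8 in colon control against lymph node control (-1.74, -4.46 to 0.05).

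Counts of genes at least 2-fold apart moved far more. Higher and lower genes in lymph node light against control were 10 and 11, with median-of-ratios scaling 32 and 2, without a minimum 2469 and 1688, and with a minimum of 50 molecule-equivalents 2 and 4; thinning gave 3 higher. In colon light against colon control they were 157 and 30, without a minimum 3645 and 1805, with a minimum of 50, 53 and 13; thinning gave 16 higher. In colon control against lymph node control they were 26 and 60, without a minimum 1730 and 2887, with a minimum of 50, 9 and 13; thinning gave 28 lower. In colon light against lymph node light they were 41 and 59, with median-of-ratios scaling 64 and 22, without a minimum 2351 and 3038, with a minimum of 50, 8 and 22; thinning gave 15 higher, and a total without ribosomal RNA genes and Gm12374 gave 29 lower. A minimum of 50 leaves fewer genes to test; the causes of the other shifts were not tested. The line CT010467.1, grouped here with the ribosomal RNA genes, took 5.02% of counts in the colon control and 28.4% in colon light.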
